A study of Anguilla anguilla with 6 samples.

Results

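Aquaporins are membrane channels that let water pass, and some of them also glycerol and other small solutes. The family falls into water-selective channels such as AQP1 and AQP4, aquaglyceroporins such as AQP3 and AQP10, AQP8, which also carries ammonia, and unorthodox members such as AQP11, which mammals keep largely on intracellular membranes. In many marine teleosts the oocyte takes up water before ovulation, when yolk proteins are cut to free amino acids, and an AQP1 duplicate in the oocyte membrane is a known path for that water. Teleosts carry their AQP1 duplicates as close neighbours in the genome.

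Members were all gene models whose description in the authors' deposited table contains the word aquaporin, in any case, which gave 14 of 45974 models. They were followed in the ovary of 6 farmed European eels (Anguilla anguilla), each sequenced as 1 mRNA library after 4 weekly injections of gonadotropins, pituitary hormones that act on the ovary. By the phenotype label 4 eels were responders and 2 were non-responders, and both groups had the same hormone course. The labels give no genotype, age, hormone preparation or untreated group, and they do not say how a response was defined. Each library came from pooled pieces of the front, middle and rear of 1 gonad. All values are the authors' group means of scaled counts, which are read counts divided by library size factors. Values per library were not used here, so no SD can be given and overlap between animals cannot be stated. The log2 ratios are responder over non-responder, and "called" means an adjusted p under 0.05 as the authors give it.

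The 14 models shared 7 names given by their best protein match. There were 4 models of AQP4, 3 of AQP3, 2 of AQP1, 2 of AQP8 and 1 each of AQP10 and AQP11, and 1 short model matched a maize tonoplast channel (TIP4-3, g22752). Each model had 1 transcript, and transcript lengths in the authors' deposited table ran from 196 bases (g22752) to 1574 bases (AQP1, g213). Similarity to the best match was lowest for AQP11 (g7761) at 0.493 and highest for AQP10 (g30449) at 0.80, the latter over a transcript of only 292 bases. The gene ontology term for water channel activity was attached to 12 of the 14 models and to no other model of the table, and AQP10 (g30449) and AQP11 (g7761) were the members without it. The term for glycerol channel activity was attached to all 3 AQP3 models and to none of the other members. A match to a mammalian protein names the best match among the proteins searched and does not say which teleost duplicate a model is. Models of 1 name can be duplicate genes or pieces of 1 gene. The 2 AQP1 models carry consecutive identifiers, g213 and g214. No model identifier matched the reference gene table, so positions were not used here.

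Within this family, 1 AQP1 model (g213) dominated the ovarian RNA of both groups, followed far below by 1 AQP3 model and the other AQP1 model. The AQP3 model g6804 showed the smallest p, with a responder mean 2.09-fold below the non-responder mean, and it did not pass the adjusted threshold. The remaining models were low or listed at 0. By the authors' deposited table none of the 14 aquaporin models was called, against 0.183% of all 37072 models with a p (0.121% higher and 0.062% lower). At an unadjusted p under 0.05 there was 1 member, g6804, among the 10 with a p, against 3.67% of all models, or among the 6 with a mean of at least 5 scaled counts, against 5.61% of such models. The count of called members was also 0 at an adjusted p under 0.1 (0.259% of all models). It was 0 again when the authors' p was adjusted anew over the better expressed models, those with a mean of 5 or more (0.352% called) or of 20 or more (0.53% called).

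AQP1, the founding water channel of red blood cells and kidney, had its main model in g213. For g213 the authors' deposited table gave 15201 scaled counts for the non-responder mean and 12748 for the responder mean. Divided by transcript length, these levels were 9658 and 8099 scaled counts per kilobase. Its level per kilobase over all 6 libraries was reached by only 118 of the 45974 models, itself included. It held 97.4% of the summed aquaporin scaled counts of non-responders and 97.8% of those of responders. The group difference was small, at log2 -0.25 with p = 0.42 and adjusted p = 1 by the authors' deposited table. An approximate 95% interval worked back from that p ran from -0.87 to 0.36 in log2, or from 0.548 to 1.28 times the non-responder level.

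The other AQP1 model, g214, was far less abundant and lay on the other side of a ratio of 1. For g214 the authors' deposited table gave 49.9 scaled counts for non-responders against 84.5 for responders (log2 0.76, p = 0.099, adjusted p = 1). The approximate 95% interval of that log2 ratio was -0.14 to 1.66. Per kilobase, g213 stood 229 times above g214 in non-responders and 114 times above it in responders. Neither model passed, and whether the ratios of the pair differ from each other was not tested, since that needs values per library.

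**Figure D1:**
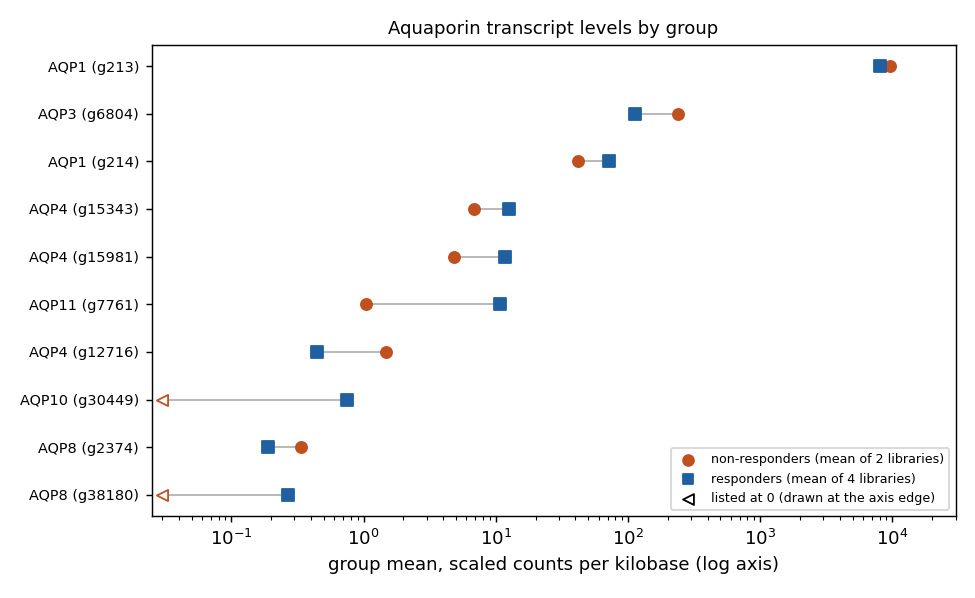
Group means of the 10 aquaporin models above 0, in scaled counts per kilobase of transcript on a log axis, with circles for non-responders (2 libraries) and squares for responders (4 libraries); open triangles at the axis edge mark a group listed at 0. AQP1 (g213) sits at 9658 and 8099 per kilobase, AQP3 (g6804) at 237 and 113 and AQP1 (g214) at 42.2 and 71.4, with every other model lower; no error bars are drawn because values per library were not used.

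AQP3, an aquaglyceroporin that carries glycerol and urea besides water, was represented by 1 expressed model. For g6804 the authors' deposited table gave 343 scaled counts for non-responders against 164 for responders. The log2 ratio was -1.06, with p = 0.0019 and adjusted p = 0.33 by the authors' deposited table. A smaller p was given to 216 of the 37072 models. The approximate 95% interval of the log2 ratio was -1.74 to -0.39, a range that takes no account of the number of models tested. Its adjusted p was 0.21 when adjusted over models with a mean of 5 or more and 0.16 over those with a mean of 20 or more. Per kilobase, g6804 had 237 scaled counts in non-responders, 5.62 times the level of g214, and 113 in responders, 1.59 times that level. The other AQP3 models, g14464 with 1078 bases and g24896 with 360 bases, were listed at 0 for both groups. AQP10 (g30449), the other aquaglyceroporin, was listed at 0 for non-responders and at 0.22 scaled counts for responders by the authors' deposited table.

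AQP4, the water channel of mammalian brain astrocytes, had 2 models with a mean of 5 or more. For g15343 the authors' deposited table gave 8.05 scaled counts for non-responders against 14.9 for responders (log2 0.89, p = 0.60). For g15981 the authors' deposited table gave 6.65 against 16.2 (log2 1.28, p = 0.46). Both responder means were the higher ones, and both models had an adjusted p of 1. They were close in level, at 10.7 scaled counts per kilobase for g15343 and 9.46 for g15981 over all 6 libraries, and their order is the reverse when scaled counts are not divided by length. Another AQP4 model, g12716, stood at 1.64 against 0.49 scaled counts by the authors' deposited table, and the last, g1200, was listed at 0 for both groups.

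AQP11 (g7761) had the widest finite ratio of the family on few counts. For g7761 the authors' deposited table gave 0.94 scaled counts for non-responders against 9.82 for responders (log2 3.38, p = 0.093, adjusted p = 1). Summed over libraries these means amount to about 2 scaled counts from 2 non-responders and 39 from 4 responders. Treated as reads, they give a ratio of means of 9.75 with an exact (Clopper-Pearson) 95% counting interval of 2.52 to 83.3, which holds counting error only and no spread between animals. With 1 scaled count added to each group mean the log2 ratio was 2.48.

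AQP8, which carries ammonia as well as water, was at the limit of detection. For g2374 the authors' deposited table gave 0.47 scaled counts for non-responders against 0.27 for responders, and g38180 was listed at 0 against 0.22. The short maize-matched model g22752 was listed at 0 for both groups. In all, 4 of the 14 models were listed at 0 for both groups, 4 had means above 0 and under 5, and 6 had a mean of 5 or more over the 6 libraries. A level listed at 0 says that no read was assigned to the model, not that the gene is silent. The lens channel MIP belongs to the same family, but its description lacks the word aquaporin. Its models stood at 4.86 against 5.25 scaled counts (g12926) and 0 against 0.28 (g1199) by the authors' deposited table.

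Across the 6 models with a mean of 5 or more, 4 lay above and 2 below a ratio of 1, and the median log2 ratio was 0.82. Among all 23266 models with that mean the median was 0.01, and 50.6% lay above a ratio of 1. The median of the aquaporins rested on the low models: over the 3 with a mean of 20 or more it was -0.25, and over the 8 with a finite ratio it was 0.25. The summed aquaporin signal followed g213, at 15612 scaled counts for non-responders and 13038 for responders, or 0.124% and 0.111% of the summed group means. Without g213 the sums were 411 and 291 scaled counts. Rescaling both groups to equal sums adds 0.11 to each log2 ratio, including the median of all models, and changed the sign of 0 of the 6.

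**Figure D2:**
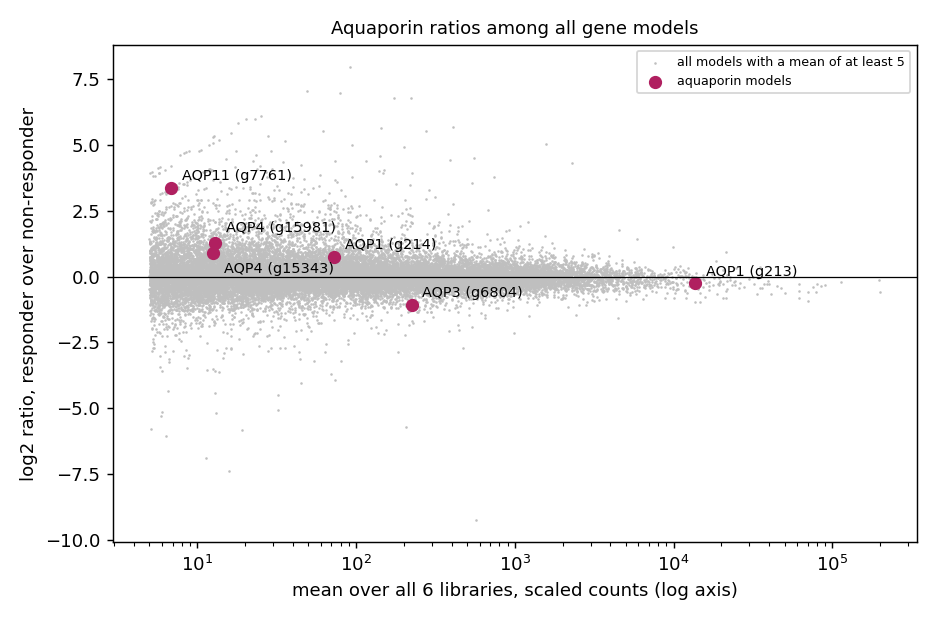
The log2 ratio of responders over non-responders against the mean over all 6 libraries (log axis) for the models with a mean of 5 scaled counts or more, grey for all models and coloured for the 6 aquaporins. The low AQP11 (log2 3.38) and AQP4 models lie where the grey cloud is wide, whereas AQP3 (g6804, log2 -1.06) lies toward the lower edge of the cloud and AQP1 (g213, log2 -0.25) within it.

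Several cell types of an ovary can hold aquaporins, among them the oocyte, red blood cells and endothelium, and in pieces of whole ovary fewer cells of a type and less RNA per cell cannot be told apart. Oocyte markers were abundant, with 20 models of egg envelope and oocyte genes that summed to 678077 scaled counts for non-responders and 454258 for responders. Most of the 20 were egg envelope (zona pellucida) models. Among the others, the log2 ratio ran from -0.95 for ZAR1 (g14809) to 0.03 for GDF9 (g5262). The responder mean was the lower one in 19 of the 20, with -0.37 as the median log2. Among all models with a mean of 5 or more, 50.6% lay above a ratio of 1. Of the 20, 0 were called, against 0.183% of all models with a p. At an unadjusted p under 0.05, 3 of the 20 were lower in responders and 0 were higher. Among all models with a mean of 5 or more, 5.61% passed that threshold in either direction. The 3 oocyte models were ZP4 (g11772, log2 -0.97), ZAR1 (g14809, -0.95) and a ZP3 model (g16004, -0.91). The log2 of AQP1 g213 (-0.25) lay above the oocyte median. That of AQP3 g6804 (-1.06) lay just below the lowest value of the oocyte list, -0.97 for ZP4 (g11772). Whether g6804 differs from these oocyte models was not tested. The 8 erythrocyte models, mostly hemoglobin chains, summed to 1648 scaled counts for non-responders and 1814 for responders. Levels per kilobase, once summed, count a gene more than once where several models are pieces of it. AQP1 g213 alone stood at 9658 and 8099 scaled counts per kilobase, against 4147 and 6362 summed over the 8 erythrocyte models. That sum is higher for responders through 1 hemoglobin beta model (hbbc, g34146), at 41.9 against 413 scaled counts by the authors' deposited table (log2 3.30, p = 0.49). Without it the sums were 3856 and 3497 per kilobase. Of the 7 erythrocyte models with a mean of 5 or more, g34146 included, 6 lay below a ratio of 1 (median log2 -0.04). The 1 above was g34146. The 8 endothelial models summed to 206 and 127 scaled counts, of which the VE-cadherin model CDH5 (g17569) held 95.4 and 37.4 by the authors' deposited table (log2 -1.35, adjusted p = 0.19). Of the 6 with a mean of 5 or more, 4 lay below and 2 above a ratio of 1 (median log2 -0.30). Those above were TIE1 (g2753, log2 0.16) and another CDH5 model (g3545, log2 0.26). Summed levels of 15 granulosa and theca models were 1387 and 1811 scaled counts. That sum is higher for responders through steroid 17-alpha-hydroxylase models (cp17a), chiefly g10692 (222 against 556) and g22995 (179 against 392). The most abundant model of the list, 3bhs (g10190), went the other way, at 671 against 546. Of the 12 with a mean of 5 or more, 6 lay above and 6 below a ratio of 1. Summed levels of 12 smooth muscle models were 540 and 546 scaled counts. Of the 6 with a mean of 5 or more, 5 lay above a ratio of 1. The 1 below was calponin-1 (cnn1, g14833), at 169 against 76.1 (log2 -1.15). Those of 5 leukocyte models summed to 69.0 and 92.6 scaled counts, with 3 above and 2 below a ratio of 1. The 2 below were ptprc (g6670, log2 -0.18) and a coronin-1a model (cor1a, g21858, log2 -0.09). The 4 adipocyte models summed to 18293 and 17833, nearly all from FABP4 (g3192), a fatty acid binding protein with a log2 of -0.04. By the authors' deposited table the other adipocyte models lay above 1, CEBPA (g16641) at log2 0.92, PLIN1 (g8968) at 0.94 and adiponectin (adipo, g9157) at 1.53, and none was called. Of all these marker models 0 were listed at 0 for both groups, but the planned markers FIGLA, STAR and EPB42 had no model among them. The part of these cell types in the aquaporin values was not tested.

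Water follows solutes, so pumps, carriers and regulators of water, ion and glycerol movement were set beside the aquaporins in 10 lists of 168 models. None of these models was called, against the same 0.183% of all models with a p. At an unadjusted p under 0.05, 3 were higher and 1 was lower in responders among the 158 with a p, against 3.67% of all models in either direction. The counts and medians of single lists that follow are over models with a mean of 5 or more. As with the aquaporins, models of 1 name can be duplicate genes or pieces of 1 gene, so these counts are of models and not of genes. Over all 106 such models the median log2 was -0.10, with 46 above and 60 below a ratio of 1.

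The sodium pump, which sets the sodium and potassium gradients, had 13 models with a mean of 5 or more. Of these, 9 lay below a ratio of 1 (median log2 -0.41), and most of those 9 were alpha-1 models (at1a1). The beta-1 subunit of the pump (at1b1, g3583) had the highest level per kilobase of all 168 models, 3506 scaled counts for non-responders against 3153 for responders. That level was below AQP1 g213 in both groups. The smallest p-values of the list by the authors' deposited table belonged to an alpha-1 model (at1a1, g43721, 234 against 148 scaled counts, log2 -0.67) and to the gamma subunit (atng, g17810, 69.1 against 117, log2 0.76). The vacuolar proton pump, which acidifies vesicles, had 38 such models, 19 on each side of 1 (median log2 -0.01). For a model of its accessory subunit S1 (vas1, g12207) the authors' deposited table gave 349 against 792 scaled counts (log2 1.18, p = 9.0e-04, adjusted p = 0.22). Next by p came an a3 subunit model (vpp3, g13788), at 60.9 against 38.1 by the authors' deposited table (log2 -0.68). Another S1 model (vas1, g14721) lay below a ratio of 1, at 260 against 231 (log2 -0.17).

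Cation-chloride cotransporters had 21 models with a mean of 5 or more, of which 14 lay below a ratio of 1 (median log2 -0.23). Most of those 14 were models that share the name s12a9. For the sodium-potassium-chloride cotransporter s12a1 (g5372) the authors' deposited table gave 1.88 scaled counts against 14.02 (log2 2.90, p = 0.0053, adjusted p = 0.56), and for s12a9 (g40364) it gave 203 against 117 (log2 -0.79). Of 10 sodium-proton exchanger models with that mean, 7 lay below a ratio of 1 (median log2 -0.26). For the exchanger sl9a5 (g14626) the authors' deposited table gave 179 scaled counts against 86.8 (log2 -1.04, p = 0.0039, adjusted p = 0.50), and for sl9a7 (g13989) it gave 72.6 against 35.1 (log2 -1.05). Another sl9a7 model, g9084, lay on the other side of 1, at 69.8 against 100 (log2 0.52). LRRC8 proteins form the volume-regulated anion channel, and the 4 of their 7 models with a mean of 5 or more lay above 1, at log2 0.13 to 0.33. Among them LRRC8D (lrc8d, g2825) stood at 204 against 250 and LRRC8A (lrc8a, g748) at 440 against 508 scaled counts by the authors' deposited table.

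Glycerol, urea and organic osmolytes, solutes that aquaglyceroporins or osmolyte carriers handle, gave no called model either, against 0.183% of all models with a p. Among the 9 of 12 glycerol handling models with a mean of 5 or more, 6 lay below a ratio of 1 (median log2 -0.21). For the glycerol-3-phosphate dehydrogenase-like gpd1l (g3570) the authors' deposited table gave 52.2 scaled counts against 162 (log2 1.64, p = 0.031, adjusted p = 1), and for glycerol kinase 5 (glpk5, g28683) it gave 52.5 against 29.9 (log2 -0.81). The urea transporter ut2 had 1 well expressed model (g4498) at 1071 against 1156 scaled counts (log2 0.11), and 1 other (g4882) at 0 against 1.19, by the authors' deposited table. Of the taurine transporter sc6a6, the models with the smallest p-values by the authors' deposited table were g28954 (50.2 against 93.0 scaled counts, log2 0.89) and g11130 (16.4 against 22.1, log2 0.43).

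Regulators of aquaporins were also without a call, against 0.183% of all models with a p. In mammals, vasopressin acting through its V2 receptor moves AQP2 to the cell surface, and no AQP2 model was among the 14. A V2-type receptor model (v2r, g7313) stood at 36.3 against 35.4 scaled counts by the authors' deposited table (log2 -0.03). The other 4 receptor models had under 2 scaled counts in either group, and by the authors' deposited table the 2 of them with a p, both vasotocin receptor models with p = 1, were at 0 against 0.21 (avt, g27065) and 1.02 against 1.88 (avt, g9395). The 14-3-3 adaptor proteins had 6 models with a mean of 5 or more, of which 4 lay below a ratio of 1 (median log2 -0.24). Their smallest p-values by the authors' deposited table belonged to zeta models, g12223 (1348 against 988 scaled counts, log2 -0.45) and g26517 (127 against 91.3, log2 -0.47). The most abundant zeta model, g10889, lay above 1, at 2813 against 3132 (log2 0.16).

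**Figure D3:**
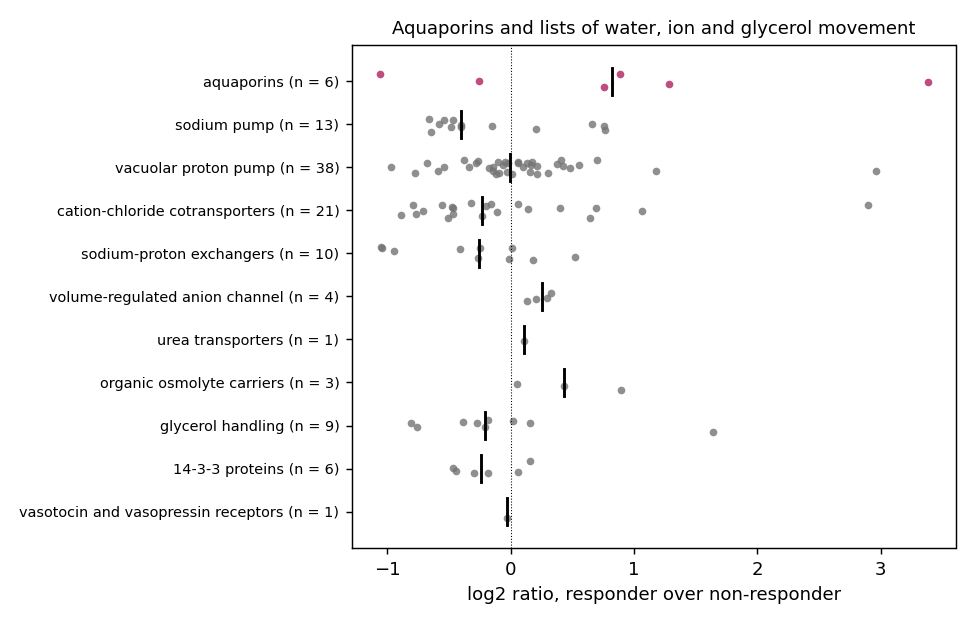
The log2 ratio of responders over non-responders for each model with a mean of 5 scaled counts or more, by list, with points spread vertically within a list for sight and a black bar at each list's median. The 6 aquaporins run from -1.06 to 3.38 with a median of 0.82, the 13 sodium pump models have a median of -0.41 and the 38 vacuolar proton pump models one of -0.01; no point belongs to a called model.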

How the data were processed

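Per the labels' protocols, RNA was isolated with a miRNeasy kit and libraries were made with an Illumina kit for mRNA. Expression came from 1 table of the authors' own comparison, named after DESeq. Its version, the aligner, the counter and the build were "not given in the sources used here". The group means are a signal, counts over size factors, that the authors deposited as base means per the file headers. The authors deposited a fold, which is the responder mean over the non-responder mean, and a p-value and adjusted p-value for 37072 models. The other 8902 models have a mean of 0. Transcript lengths, taken as bases, and similarities to the best match were deposited too.

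In each row the overall mean equals the condition means weighted by 2 and 4 libraries (largest deviation 3.5e-10), so condition A was taken as the 2 non-responders and B as the 4 responders. Columns for 6 single libraries bear names found in no label and were left out; depth per library, spread between animals and count tests such as edgeR were therefore not analysed here. The table has 1 emptied line.

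The log2 of the deposited fold was used for ratios, and levels of different genes were compared per kilobase of total transcript length. Approximate 95% intervals for members with a mean of 50 or more took the standard error as the size of the log2 ratio over the normal quantile of the authors' two-sided p, and were added after the data were seen. P-values were adjusted anew by the Benjamini-Hochberg method, checked on simulated data. Every aquaporin model was named, and from each list the 2 models with the smallest p. Lists were matched by name or description, and matches were settled after the data were seen, and 2 models described as another protein were taken out of the erythrocyte markers. Members and lists were chosen with earlier results of these data known. No genes of like pattern were sought, since 2 group means hold no pattern. Software was Python 3.11.15, pandas 2.3.3, numpy 2.4.6, scipy 1.17.1 and matplotlib 3.10.9.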

Additional observations from a re-analysis of the deposited data

How the results depend on the processing

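The count of called aquaporin models stayed at 0 with the authors' p adjusted anew among models averaging 5 or more, or 20 or more, scaled counts and at an adjusted p under 0.1, and was 1 (AQP3, g6804) at an unadjusted p under 0.05. Under that last setting the count over all models went from 68 to 1360 and that of the water and ion transport lists from 0 to 4. The other counts over all models were 82, 90 and 96. The median log2 of the aquaporins was 0.82, and it was 0.25, -0.25, 0.93 and 0.78 over all finite ratios, over means of 20 or more, with equal sums and with a pseudocount of 1, so its sign depends on the filter on low values. No single log2 ratio changed sign under equal sums or the pseudocount. The level of g213 over that of g6804 was 55.8 per kilobase and 60.6 without length. Fits without single replicates, edgeR and DESeq2 with their filters were not run, since the columns for single libraries bear names found in no label and were left out. No paired analysis was possible because each library is a separate eel, the labels pair none of them, and the deposited p-values compare group means. The contrast rests on 2 non-responders, and low means limit AQP4, AQP8, AQP10 and AQP11.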
